A study of Mus musculus with 4 samples.

Results

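The genes described here encode proteins that build, coat or break down lipid droplets, the organelles in which cells store triglyceride. They are 10 genes, chosen by name with earlier results of these arrays known. The list holds Cidea, Cideb and Cidec of the CIDE family and the perilipins Plin2, Plin4 and Plin5. It also holds the lipase gene Pnpla2 and its inhibitor G0s2, and the fat storage genes Fitm1 and Fitm2. All 10 were measured, on 12 of the 45101 probe sets of the array, and the array names 18193 genes in all. The liver samples came from male mice of the inbred strain C57BL/6J aged 4, 8, 13 and 21 months. All mice had free access to a low-fat diet, and no other treatment or allele is given. Each age is 1 array, which received a pool of RNA from 6 livers. The spread between mice is therefore not known, no pair of ages could be tested, and no p-value is given. A linear trend with age was not run either. Age cannot be told apart from the pool, the array or the hour of collection, which the labels do not state. In whole liver RNA, fewer cells of a type and less RNA per cell cannot be told apart.

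A lipid droplet is a core of neutral lipid under a single layer of phospholipid. FIT proteins of the endoplasmic reticulum help droplets to form, CIDE proteins let a small droplet pass its lipid to a larger one, and perilipins coat the surface and control access of lipases. Pnpla2 encodes adipose triglyceride lipase, which starts the breakdown of stored triglyceride, and G0s2 encodes a protein that binds and inhibits it. Cidea and Cidec are adipocyte genes that are scarce in lean liver and are known to be induced in fatty liver, whereas Cideb is a hepatocyte gene with a part in very low density lipoprotein (VLDL) assembly.

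Values are log2 levels, where a difference of 1 is 2-fold. A gene was counted as higher or lower when it differed at least 1.5-fold, which is 0.58 on the log2 scale. A filter on level kept the 11582 genes whose mean over the arrays was at or above 3.74, the median of all probe sets, and 9 of the 10 members passed it. Cidec did not pass, and Cidea passed through its 21-month level. The liver label was checked with hepatocyte markers. All 9 that were measured lay between 10.4 and 13.5 on every array, and array medians lay between 3.73 and 3.76.

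**Figure D1:**
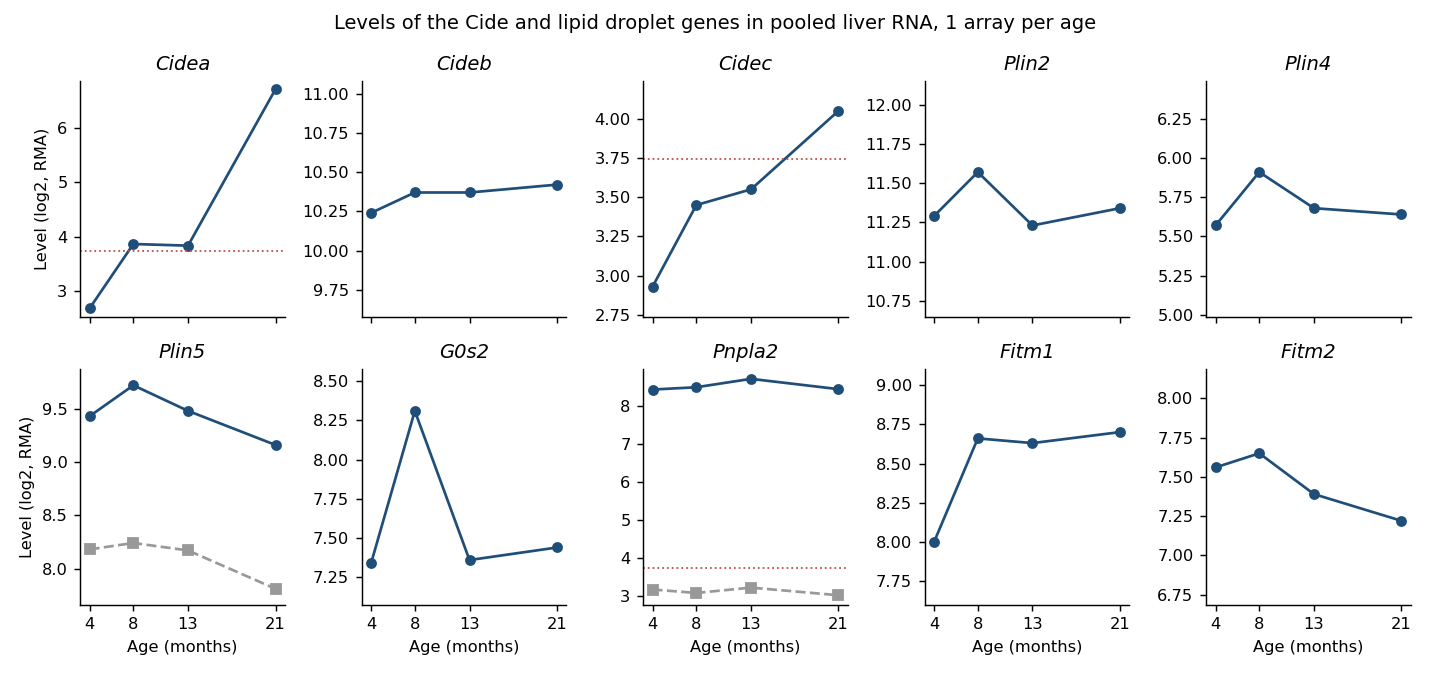
Log2 level of each of the 10 genes (vertical axes, each with its own range) against age in months, with 1 array of pooled RNA per age. Solid blue lines are the probe set used for the gene, dashed grey lines a second probe set, and the dotted red line the filter on level at 3.74. Cidea, Cidec, Cideb and Fitm1 were lowest at 4 and highest at 21 months (for Cideb and Fitm1 not after quantile normalization or cyclic loess, when 8 months was slightly higher than 21). Plin2, Plin4, Plin5, G0s2 and Fitm2 were highest at 8 months.

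The CIDE genes had their lowest level at 4 and their highest at 21 months, in steps of very different size, and for Cideb the order of 8 and 21 months turned with the normalization. Cidea (probe set 1417956_at), which promotes the growth of droplets and is best known from brown fat, was at 2.69, 3.87, 3.84 and 6.71 at 4, 8, 13 and 21 months. The 4-month array lay below the filter, the 8-month and 13-month arrays lay just above it, and the 21-month array stood far above the others. The difference was 1.18 for 8 vs 4 months, -0.03 for 13 vs 8 and 2.87 for 21 vs 13, and 21 vs 4 months gave 4.02, or 16.2-fold. Because the 4-month level is near the low end of the scale, where background is not told apart from signal, the size of this difference is uncertain.

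Cidec (1452260_at), the CIDE gene of white adipocytes, was at 2.93, 3.45, 3.55 and 4.05 at the 4 ages. It was higher at every later age, and only its 21-month level lay above the filter. The difference was 1.12 for 21 vs 4 months (2.17-fold), 0.52 for 8 vs 4 and 0.50 for 21 vs 13. Cideb (1418976_s_at), the CIDE gene that hepatocytes express in the lean state, was at 10.24, 10.37, 10.37 and 10.42. Its whole range was 0.18, and no pair of ages was 1.5-fold apart. Its difference for 21 vs 8 months, 0.05 as deposited, was -0.0112 after quantile normalization and -0.0088 after cyclic loess. Among the CIDE genes the large differences were thus in Cidea and Cidec, both below the filter at 4 months, and Cideb differed little.

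The FIT genes differed from each other. Fitm1 (1451488_at), which in mice is expressed mainly in skeletal and heart muscle, was at 8.00, 8.66, 8.63 and 8.70. The 4-month array was low and the other 3 lay within 0.07 of each other, so that the difference of 0.66 for 8 vs 4 months (1.58-fold) accounted for nearly all of the 0.70 for 21 vs 4 months (1.62-fold). Fitm2 (1454935_at), the more widely expressed gene of the pair, was at 7.56, 7.65, 7.39 and 7.22. It was highest at 8 and lowest at 21 months, with -0.34 for 21 vs 4 months and -0.43 for 21 vs 8 months, neither of them past 1.5-fold. Cidea, Cideb, Cidec and Fitm1 were thus lowest at 4 and highest at 21 months as deposited, but for Cideb, as above, and Fitm1 (0.04 for 21 vs 8 months as deposited, -0.05 after quantile normalization and -0.0128 after cyclic loess) the highest age depends on the normalization. This order was singled out after the values were seen. Of the 9 kept members 3 have it, and 8.24% of the kept genes. Cidea, 1 of these 3, was kept through its 21-month level, so its place in this count follows in part from the filter. For Cideb and Fitm1 the order turns with the normalization, so the count is no measure of an excess.

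The perilipin genes among the members, Plin2, Plin4 and Plin5, and G0s2 were highest at 8 months, as was Fitm2. G0s2 (1448700_at), the lipase inhibitor, was at 7.34, 8.31, 7.36 and 7.44. The 8-month array stood alone, and the other 3 lay within 0.10 of each other. It was 1.96-fold higher at 8 vs 4 months (0.97) and differed by -0.95 for 13 vs 8 months, 2 differences that share the 8-month array. Pnpla2, the lipase that G0s2 inhibits, was at 8.42, 8.48, 8.70 and 8.43 on its brighter probe set (1428143_a_at), highest at 13 months and 0.06 higher at 8 vs 4 months. Its second probe set (1428591_at) lay below the filter at every age, between 3.03 and 3.23. The lipase gene thus stayed within 0.28 over the 4 arrays, where its inhibitor spanned 0.97.

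Plin2 (1448318_at), which coats droplets in most tissues, was at 11.29, 11.57, 11.23 and 11.34. It was 0.28 higher at 8 vs 4 months and differed by -0.34 for 13 vs 8 months. Plin4 (1418595_at), a perilipin best known from adipocytes, was at 5.57, 5.91, 5.68 and 5.64, with 0.34 for 8 vs 4 months. Plin5, which is found in tissues that oxidise fat and tethers droplets to mitochondria, was at 9.43, 9.72, 9.48 and 9.16 on its brighter probe set (1441915_s_at). It was highest at 8 months like Plin2 and Plin4 but lowest at 21 months, with -0.32 for 21 vs 13 months and -0.56 for 21 vs 8 months. Its second probe set (1424937_at), at 8.18, 8.24, 8.17 and 7.81, shared the low 21-month level, with -0.36 for 21 vs 13 months, but was only 0.06 higher at 8 vs 4 months, against 0.29 on the first. The 8-month level of Plin5 therefore depends on the probe set, and its low level at 21 months was seen on both. Plin2, Plin4, Plin5 and G0s2 were each at least 0.1 above every other age at 8 months. This pattern, singled out after the values were seen, was shown by 4 of the 9 kept members and by 8.37% of the kept genes. Plin5 has it on its brighter probe set only, as the second was 0.06 higher at 8 vs 4 months. The count is therefore no measure of an excess.

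Because Plin2, Plin4, Plin5 and G0s2 were each at least 0.1 above every other age at 8 months, the sequence at their start sites is shown, with that of Cidec for comparison. Fitm2 was also highest at 8 months, but by only 0.09 over 4 months, and its sequence is not printed. The sequences are from RefSeq (GRCm38.p6) and run from 250 bases before to 50 after the annotated start, 5′ to 3′ on the strand of the gene. They lie on the minus strand at chr4:86670010-86670309 (Plin2), chr17:56109733-56110032 (Plin4), chr17:56117499-56117798 (Plin5), chr1:193273139-193273438 (G0s2) and chr6:113435711-113436010 (Cidec). The table held 11 windows for 9 of the members, all but Cidea, with 2 overlapping windows for Plin5 and 2 starts for Cidec, and which start a probe set reports on was not examined. Capitals mark the E-box CACGTG, a site bound by clock, USF and SREBP proteins, CCAAT on either strand, a site bound by NF-Y, and AGGTCA on either strand, the half-site of nuclear receptors.
Plin2: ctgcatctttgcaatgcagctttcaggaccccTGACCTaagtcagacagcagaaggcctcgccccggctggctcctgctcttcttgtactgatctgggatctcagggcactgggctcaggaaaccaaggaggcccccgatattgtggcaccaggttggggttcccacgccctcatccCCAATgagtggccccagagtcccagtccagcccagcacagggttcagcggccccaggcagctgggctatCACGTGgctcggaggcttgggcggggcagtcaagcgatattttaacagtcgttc
Plin4: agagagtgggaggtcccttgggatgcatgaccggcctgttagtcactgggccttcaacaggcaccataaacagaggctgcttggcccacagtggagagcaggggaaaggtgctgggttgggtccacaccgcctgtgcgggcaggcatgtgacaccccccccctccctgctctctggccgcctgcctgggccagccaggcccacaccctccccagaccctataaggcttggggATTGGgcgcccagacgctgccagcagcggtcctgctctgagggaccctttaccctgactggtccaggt
Plin5: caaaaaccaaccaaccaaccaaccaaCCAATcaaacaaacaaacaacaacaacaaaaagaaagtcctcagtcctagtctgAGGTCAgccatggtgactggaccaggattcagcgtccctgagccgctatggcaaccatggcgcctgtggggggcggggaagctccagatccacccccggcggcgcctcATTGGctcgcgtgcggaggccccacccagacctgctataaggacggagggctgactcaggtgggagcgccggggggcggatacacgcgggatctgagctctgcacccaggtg
G0s2: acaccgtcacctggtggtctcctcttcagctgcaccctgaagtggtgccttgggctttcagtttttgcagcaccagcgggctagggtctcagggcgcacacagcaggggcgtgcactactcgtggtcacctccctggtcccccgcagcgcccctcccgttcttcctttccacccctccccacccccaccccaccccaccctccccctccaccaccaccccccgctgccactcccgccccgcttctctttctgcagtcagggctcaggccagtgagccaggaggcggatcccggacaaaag
Cidec: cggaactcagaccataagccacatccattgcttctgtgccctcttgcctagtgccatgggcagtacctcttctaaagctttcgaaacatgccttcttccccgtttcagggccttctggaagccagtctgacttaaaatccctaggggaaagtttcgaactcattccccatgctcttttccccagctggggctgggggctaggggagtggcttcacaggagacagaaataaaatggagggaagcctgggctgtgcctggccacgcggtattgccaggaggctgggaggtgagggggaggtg

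The letters differ among the genes that were at least 0.1 above every other age at 8 months. CACGTG, which reads the same on both strands, was in the Plin2 window and in no other of the 11, and 7.15% of 32841 windows of all genes held it. CCAAT was found on either strand in the windows of Plin2 and Plin4 and in 1 window of Plin5, and in 37.4% of all windows. AGGTCA was in the windows of Plin2 and Plin5, 3 of the 11, and in 16.3% of all. The windows of G0s2, Cidec and Fitm2 held none of these 3 motifs. GGGCGG, searched on both strands but not marked, was in 7 of the 11 windows and in 35.7% of all, and TATAAA was in that of Cideb alone and in 13.6% of all. The marked motifs did not overlap in the printed windows. Plin4 and Plin5 are neighbours on chromosome 17 with no other protein-coding gene between them, and both were higher at 8 vs 4 months, by 0.34 and 0.29. The second probe set of Plin5 gave 0.06. All 10 members were higher in this comparison on the probe sets used, so it does not set the neighbours apart.

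**Figure D2:**
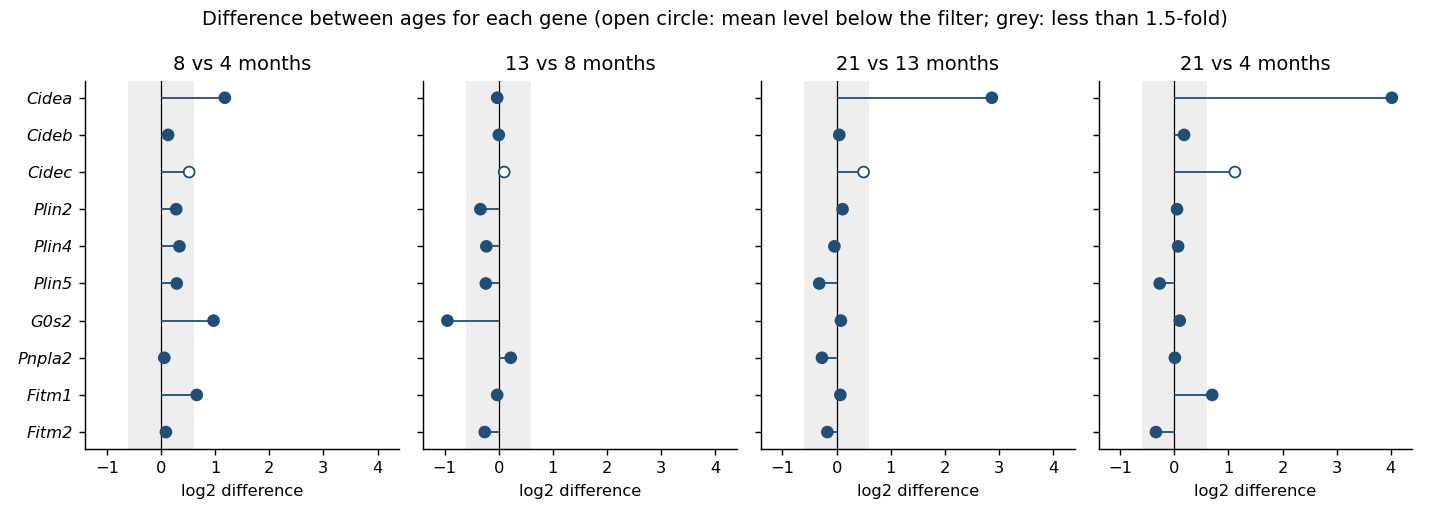
Log2 difference of each gene (horizontal axis) for 8 vs 4, 13 vs 8, 21 vs 13 and 21 vs 4 months, positive where the older age was higher. Filled circles are genes above the filter on level, the open circle is Cidec, below it, and grey marks less than 1.5-fold. All 10 genes lie to the right of 0 at 8 vs 4 months (Pnpla2, at 0.06, was at -0.015 with the mean over its probe sets), and Cidea stands apart at 21 vs 13 and 21 vs 4 months.

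At 8 vs 4 months all 9 kept members were higher (Pnpla2 was at -0.015 with the mean over its probe sets), as were 47.5% of the kept genes, and the median was 0.29 beside 0 over all kept genes. At least 1.5-fold higher were 3 of 9, namely Cidea, G0s2 and Fitm1, where 0.501% of the kept genes were, and no member was 1.5-fold lower, where 0.354% were. At 13 vs 8 months 7 of 9 were lower, as were 45.9% of the kept genes, with a median of -0.23 beside 0.01. Past 1.5-fold was G0s2 alone, on the lower side, where 0.363% of the kept genes were, and no member on the higher side, where 0.717% were. This step shares the 8-month array with the one before, so a high 8-month value enters both with opposite sign.

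At 21 vs 13 months 5 were higher and 4 lower, where 50.4% and 46.4% of the kept genes were, with a median of 0.05 beside 0.01. Cidea was the 1 member at least 1.5-fold higher (1.47% of the kept genes), and none was 1.5-fold lower (0.458%). At 21 vs 4 months Cidea and Fitm1 were at least 1.5-fold higher, 2 of 9, against 2.1% of the kept genes, and none was 1.5-fold lower (0.423%). Cidea is among the kept genes through its 21-month level, so its place in this count and in that for 21 vs 13 months follows in part from the filter, and with the filter at the 75th percentile the count at 21 vs 4 months was 1 of 7. The median was 0.07 beside 0.01, with members on both sides of it. Plin2, Plin4, G0s2, Pnpla2 and Cideb differed by at most 0.18, Plin5 by -0.27, Fitm2 by -0.34, Fitm1 by 0.70 and Cidea by 4.02. At 21 vs 8 months Cidea was at least 1.5-fold higher (2.66% of the kept genes) and G0s2 lower (0.699%), with a median of -0.23. The place of Cidea in this count, too, follows in part from the filter. At 13 vs 4 months Cidea and Fitm1 were higher, by 1.15 and 0.63 (0.838%), and no member was 1.5-fold lower (0.458%). Here, too, Cidea is counted because its 21-month level brings it past the filter, and its 4-month level lies near the low end. With the filter at the 75th percentile the count higher at 13 vs 4 months was 1 of 7.

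Other genes of the pathway were read beside the members. From 5 lists of 77 genes, chosen with results of these arrays known, 70 were above the filter. At 8 vs 4 months 0 of 70 were 1.5-fold higher or lower, where 0.501% and 0.354% of the kept genes were. With shares this small, 0 of 70 does not set the lists apart from other genes. The differences lay between -0.58 and 0.48, with a median of 0.045. Lpin1 and Ppargc1a, at -0.58, fell just short of the threshold, which is 0.585 with 1 more digit. At 21 vs 4 months 1 of 70 was 1.5-fold higher and 0 lower, where 2.1% and 0.423% of the kept genes were, with a median of -0.01. This 1 gene was Srebf1, which encodes the lipogenic regulator SREBP-1, at 8.00, 8.18, 8.56 and 8.90. It was higher at every later age.

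Among other droplet proteins, the median was 0.07 at 8 vs 4 months and 0.02 at 21 vs 4 months over 19 genes. Plin3, a perilipin that moves between cytosol and droplets, was at 6.53, 6.67, 6.77 and 6.63 and was highest at 13 months, unlike Plin2, Plin4 and Plin5. Hilpda, a small protein that also inhibits adipose triglyceride lipase, was at 4.37, 4.55, 4.53 and 4.30, a range far narrower than that of G0s2. Hsd17b13, a droplet enzyme of hepatocytes, stayed between 10.51 and 10.62.

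Over 11 genes of lipolysis and lipophagy the median was 0.03 for 8 vs 4 and for 21 vs 4 months. Abhd5, the coactivator of the Pnpla2 lipase, was at 6.64, 6.66, 6.68 and 6.58, and Mgll, which cleaves monoglycerides, at 9.46, 9.79, 9.74 and 9.49. At 21 vs 13 months none of these 11 was 1.5-fold higher or lower, where 1.47% and 0.458% of the kept genes were. The median was -0.12, and Pnpla2 itself differed by -0.27.

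Triglyceride synthesis genes had a median of 0.01 at 8 vs 4 months and -0.05 at 21 vs 4 months over 14 genes. Dgat2, which makes the last step of triglyceride synthesis, was at 10.52, 10.52, 10.66 and 10.51, almost level. Lpin1, a phosphatidate phosphatase, was at 10.06, 9.48, 9.81 and 9.59, lowest at 8 months, when Plin2, Plin4 and Plin5 were highest. Mogat1, a monoacylglycerol acyltransferase, was at 4.17, 4.65, 4.56 and 4.46, highest at 8 months. The 10 genes of VLDL assembly had medians of 0.035 and 0.01 in the same comparisons.

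The nuclear receptors that are known to control droplet genes showed smaller differences than Cidea or G0s2. Pparg, the receptor that is known to drive Cidea and Cidec in fatty liver, was at 5.14, 5.07, 5.39 and 5.27, highest at 13 months. Ppara, the fasting receptor whose targets include Plin2, was at 9.71, 9.84, 9.65 and 9.51, highest at 8 and lowest at 21 months. Ppargc1a, a coactivator of both, was at 6.08, 5.50, 5.93 and 5.83, lowest at 8 months. Over the 16 regulators the median was 0.05 at 8 vs 4 months and 0.01 at 21 vs 4 months. The RNA level of a regulator does not report its activity, and the part of the regulators in the levels of the droplet genes was not tested.

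**Figure D3:**
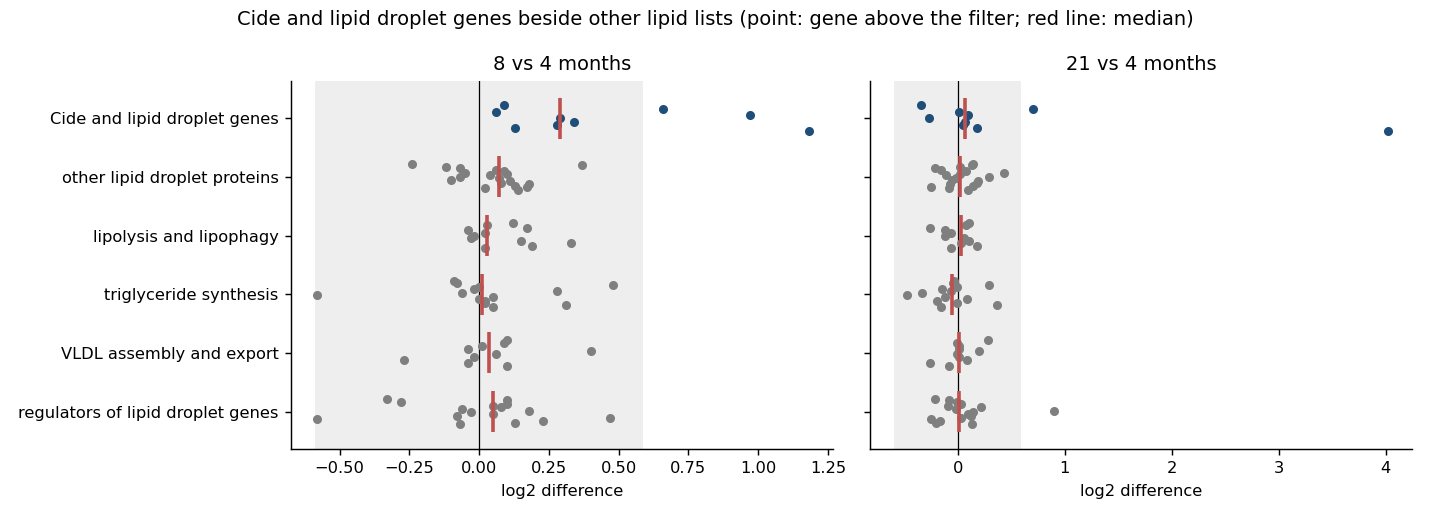
Log2 differences for 8 vs 4 months (left) and 21 vs 4 months (right), 1 point per gene above the filter, with the median of each list as a red line and less than 1.5-fold in grey. At 8 vs 4 months the 9 droplet genes have a median of 0.29, and the other lists have medians between 0.01 and 0.07.

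Markers of other cell types were read beside these levels. Cidea and Cidec are adipocyte genes, and the adipocyte hormone gene Adipoq was at 2.40, 2.20, 2.44 and 2.15, and Lep at 3.17, 3.18, 3.07 and 3.06, below the filter at every age and without a high 21-month level. Over the 8 measured adipocyte markers, 5 of them above the filter, the mean level was 5.36 at 21 months and 5.30 at 4 months. Of the brown adipocyte markers Ucp1 lay between 3.14 and 3.33 and 3 of 8 were above the filter, with a list mean of 4.41 at 21 months and 4.58 at 4 months. Elovl3 of that list, at 11.23, 11.21, 10.64 and 10.54, was 1.5-fold lower at 21 vs 4 months (-0.69). A bright gene weighs on each mean, Car3 (12.36 to 12.42) on that of the adipocyte list and Elovl3 on that of the brown list. Outside the brown list, other adipocyte markers were slightly higher at 21 vs 4 months. Of the 5 above the filter 4 were, with a median of 0.13, among them Fabp4 by 0.35, Lipe by 0.18 and Pparg by 0.13, and below the filter Trarg1 by 0.24. None of the 8 measured markers of the adipocyte list was 1.5-fold apart at 21 vs 4 months. The part of adipocytes in the levels of Cidea and Cidec was not tested. For Fitm1, a muscle gene, the 10 skeletal muscle markers had a mean of 3.33 at 8 months and 3.29 at 4 months, and none was 1.5-fold apart between these ages. The 5 above the filter were all higher at 8 vs 4 months, like Fitm1, as were 47.5% of the kept genes. Their median was 0.05, with Mylpf highest by 0.33, and their part in the level of Fitm1 was not tested.

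Macrophages also carry droplets, and their markers did move. Of 11 macrophage markers above the filter all 11 were higher at 21 vs 4 months and 6 passed 1.5-fold, where 2.1% of the kept genes did. The share of the kept genes higher by any amount at 21 vs 4 months is not given. The mean over the 12 measured was 7.37 at 21 months and 6.70 at 4 months. Trem2, a gene of lipid-laden macrophages, was at 3.67, 3.72, 3.78 and 3.93, and Gpnmb, another, stayed between 3.28 and 3.52. At 8 vs 4 months 1 of the 11 was higher and 9 were lower, where 47.5% of the kept genes were higher. The mean was 6.36 at 8 months and 6.70 at 4 months. Some bile duct markers were highest on the 8-month array. Krt19, at 3.48, 4.99, 3.32 and 2.99, and Muc1, at 3.67, 4.31, 3.36 and 3.47, were below the filter. Of the 3 above it, Tff2, at 4.44, 4.99, 4.42 and 4.01, was highest at 8 months, whereas Epcam, at 4.04, 4.13, 4.02 and 4.30, and Sox9, at 3.77, 3.86, 3.46 and 3.92, were highest at 21 months. The mean over 7 markers was 4.05 at 8 months and 3.59 at 4 months. Stellate cell markers, from cells that store retinoids in droplets, had a mean of 6.90 at 21 months, 6.80 at 8 months and 6.84 at 4 months, with 9 of 10 above the filter. The part of macrophages and bile duct cells in the levels of the droplet genes was not tested.

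The genes with profiles closest to Cidea and Cidec were found by the distance between centred log2 profiles over the 4 arrays, the square root of the summed squared differences. This was done for the 2 members whose range was at least 1, Cidea and Cidec. Such a range was reached by 1.44% of the kept genes, to which Cidec does not belong. Cidea is kept through the 21-month level that also makes its range, so the 2 members cannot be set against this share. Closest to Cidea were Prtn3, a neutrophil protease (distance 1.02), the acute phase gene Saa1 (1.06), Orm2, which encodes an orosomucoid (1.15), Lcn2, an iron-siderophore binding protein (1.23), and the immunoglobulin gene Ighm (1.24). The distance is not scaled by range, which was 4.02 for Cidea and 1.12 for Cidec, so distances cannot be compared between these genes. The Pearson correlation of these 5 genes with Cidea over the 4 arrays lay between 0.938 (Ighm) and 0.977 (Lcn2). Prtn3 was at 3.67, 3.74, 3.72 and 6.40 and had the high 21-month level of Cidea without the step at 8 months, which was 0.07 for Prtn3 and 1.18 for Cidea.

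The neighbours of Cidec lay at smaller distances, beside its smaller range. Ifi27l2b, an interferon-inducible gene, was at 4.47, 4.98, 5.12 and 5.61 (distance 0.0316), which follows Cidec step by step. Next were Lgals1, which encodes galectin-1 (0.129), the transporter Slc22a26 (0.156), Anxa1, which encodes annexin A1 (0.198), and Herc6, another interferon-inducible gene (0.207). With 4 points and 11582 genes searched, likeness of profile is a description of these arrays.

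**Figure D4:**
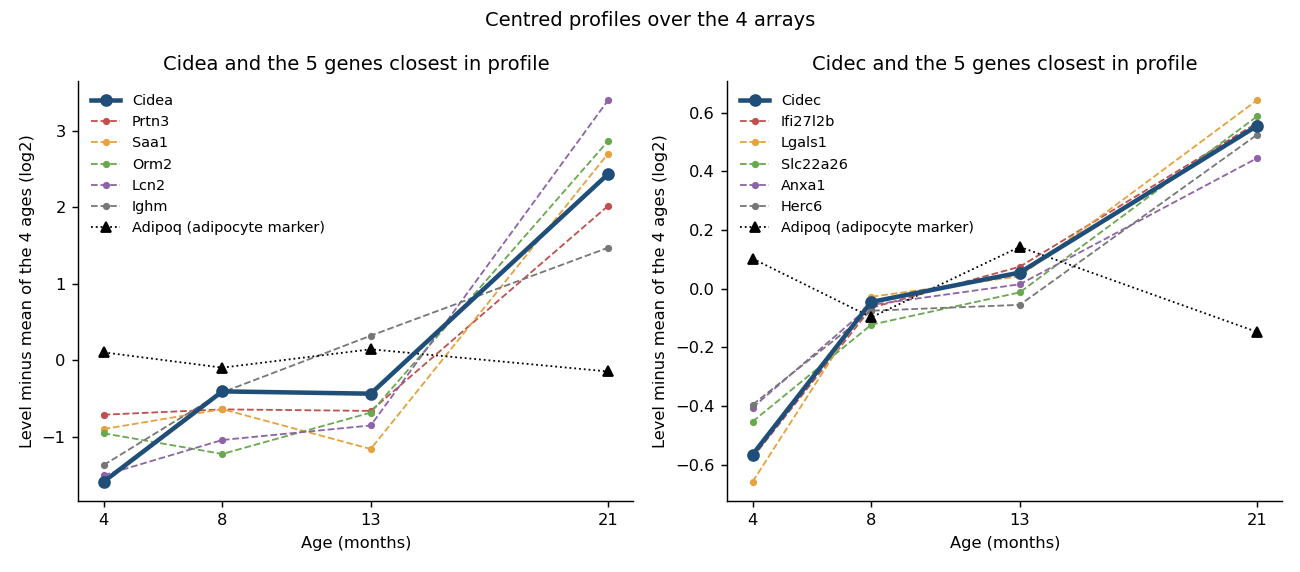
Log2 level minus the mean of the 4 ages (vertical axis) against age in months for Cidea (left) and Cidec (right) in blue, with the 5 kept genes closest in profile as dashed lines and the adipocyte marker Adipoq as black triangles. Like Cidea, its 5 neighbours were highest at 21 months, and the neighbours of Cidec lie at distances of at most 0.207 from it. Adipoq, at 2.15 at 21 months, was not higher at that age, but it lay below the filter at every age. Of the 5 adipocyte markers above the filter, 4 were higher and 1 was lower at 21 vs 4 months, with a median of 0.13. They are not drawn, and the part of adipocytes was not tested.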

How the data were processed

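Liver RNA pooled from 6 mice per age was measured on 4 arrays, grouped by labelled age. The deposited values are log2 expression levels per probe set, made by the authors with RMA per the submitters' processing notes. RMA corrects background, normalizes between arrays and summarises probes, so it compresses differences of dim probe sets and hides a shift shared by most genes. The sources used here name neither its version, the probe set definition nor a genome build, and no detection calls were used. The number of arrays limits the precision.

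Of 45101 probe sets 34945 had 1 gene symbol in the platform annotation, of which 34741 matched a current gene by identifier and 0 changed name. Of those with several symbols 0 included a member. A gene took its probe set with the highest mean, and genes with a mean at or above 3.74 were kept. No test between ages was run. The step that counts genes by fold was checked on simulated arrays. The members and all lists were chosen with earlier results of these data known. Named genes were the 10 members, up to 4 genes per list past 1.5-fold, defining markers, and the 5 nearest profiles. Other list genes were named after their values were seen. Alternatives were the mean over probe sets, no filter or a filter at the 75th percentile (5.72), median centring, quantile normalization, cyclic loess, thresholds of 0.32 (log2) and 2-fold, and a mean instead of the median. Normalizations used limma 3.58.1 in R 4.3.3. The rest used Python 3.11.15 with pandas 2.3.3 and numpy 2.4.6, and figures matplotlib 3.10.9.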

Additional observations from a re-analysis of the deposited data

How the results depend on the processing

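No paired analysis was possible because each age has 1 array. Counts were called unchanged within 1.5 times, and medians and single differences when they moved by less than 0.1 on the log2 scale. The counts and medians moved with the fold, the filter and the summary. The share of all kept genes at the other thresholds, filters and normalizations is not given. The counts below therefore show only how the number of members moved, and not whether it was unusual. At a 2-fold threshold the members higher were 1 at 8 vs 4, 1 at 21 vs 4 and 1 at 13 vs 4 months, and the members lower were 0 at 13 vs 8 and 0 at 21 vs 8 months. At a threshold of 0.32 on the log2 scale the members lower were 2 at 13 vs 8, 1 at 21 vs 4 and 3 at 21 vs 8 months. With the filter at the 75th percentile, which leaves 7 members and drops Cidea and Plin4, the members higher were 0 at 21 vs 13, 1 at 21 vs 4, 1 at 13 vs 4 and 0 at 21 vs 8 months. With no filter, which adds Cidec, the median at 13 vs 8 months was -0.13 and 2 members were higher at 21 vs 8 months. Quantile normalization and cyclic loess each gave 2 members lower at 21 vs 8 months. The mean in place of the median, which Cidea moves, was 0.44 at 8 vs 4, 0.26 at 21 vs 13, 0.50 at 21 vs 4, 0.24 at 13 vs 4 and 0.058 at 21 vs 8 months, the last of these of opposite sign to the median. Over the 10 members and 6 comparisons, single differences shifted by at most 0.03 with median centring, 0.064 with cyclic loess, 0.09 with quantile normalization and 0.115 with the mean over probe sets, and only Plin5 at 8 vs 4 months (0.175) and Pnpla2 at 13 vs 4 months (0.165), both under the last, moved by 0.1 or more. Small differences that turned sign were those of Cideb and Fitm1 at 21 vs 8 months and Pnpla2 at 8 vs 4 months, given above, and Pnpla2 at 21 vs 4 months (0.01), which was -0.07 with the mean over probe sets, -0.0475 with quantile normalization and -0.0217 with cyclic loess. Levels near the low end, as of Cidea at 4 months and Cidec, limit how well their differences are known.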
